A study of Mus musculus with 6 samples.

Results

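The genes examined here are 10 targets and components of the unfolded protein response of the endoplasmic reticulum (ER): Xbp1, Hspa5, Dnajb9, Herpud1, Hsp90b1, Calr, Pdia4, Pdia6, Edem1 and Sdf2l1. They were taken by symbol from a table of 23281 genes, and all 10 were present, each in 1 row. Nuclear RNA was followed by SLAM-seq in 6 libraries. In SLAM-seq, cells take up the uridine analogue 4-thiouridine (4sU), which is alkylated after extraction, so that reads of labelled RNA carry C in place of T (T>C). The libraries came from female mouse cells of a 129S X Cast background kept in embryonic stem cell medium. All 6 samples carried the same alleles: Xist on the 129S allele was driven by a TetOn promoter in place of its own, and a Bgl stem-loop sat at the Xist 3' end. The titles of all 6 also name the line BglHalo, and the labels used here do not say what its Halo component is. Doxycycline at 1 µg/ml was given for 17.5 to 20 h. For 4 h the cells were then exposed to 500 µM 4sU with doxycycline. Finally the label was withdrawn in 50 mM uridine with doxycycline for 30, 60, 90, 120 or 150 min, while the 0 min sample had no washout. No sample without 4sU, without doxycycline or under ER stress was analysed here.

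The unfolded protein response is the program by which cells adjust the folding capacity of the ER to its load. Its sensors IRE1 (Ern1), PERK (Eif2ak3) and ATF6 sit in the ER membrane. IRE1 removes a short intron from Xbp1 mRNA so that an active transcription factor is made, cleaved ATF6 enters the nucleus as another, and PERK slows translation while favouring that of Atf4. Their targets include the chaperones and disulfide isomerases that fold proteins in the ER lumen and the machinery of ER-associated degradation (ERAD), which returns misfolded proteins to the cytosol for destruction. Pluripotent cells also express these folding genes without added stress.

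Each washout time had 1 library, of 18558073 to 28535162 reads, so tests were made on the slope over time and their p-values measure scatter around a line, not a spread between cultures. The labelled share of a gene's reads was given in the deposited table as a posterior mean with 5% and 95% quantiles, which cover the uncertainty within 1 library only. Summed over all genes, the T>C rate (conversions per covered T) was 4.05, 2.69, 4.11, 2.57, 1.55 and 1.17% in time order, so that the 0 and 60 min libraries stood above the others. The times of the table's columns were read from the numbers in their names. If the 30 and 60 min columns were exchanged, that rate would run 4.05, 4.11, 2.69, 2.57, 1.55 and 1.17%, whereas the median labelled share of genes tested fell from 46.8 to 45.8, 44.5 and 39.3% over the first 4 times as read. Which reading is right was not tested, and results that change with the exchange are given with it below. All 8 stem cell markers looked up were detected in every library (summed level 2611 to 3028 CPM, read counts scaled to library size), Pou5f1 at 282 to 421 CPM among them. All 15 fibroblast feeder cell markers had reads in every library as well (3410 to 4907 CPM in sum), although feeder cells had been removed by pre-plating. Most of the sum came from the fibronectin gene Fn1 (2270 to 3562 CPM), followed by Vim (587 to 773 CPM). Others were near the floor, such as Fap (0.105 to 0.46 CPM, 3 reads at its lowest) and Postn (1.3 to 1.94 CPM). The part of feeder RNA in the values below was not tested. Because the RNA was nuclear, loss of label by decay and loss by export cannot be told apart.

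Of the 10 promoters 5 carried a form of the sequence by which the response is best known. The ER stress response element (ERSE) is recognised by ATF6 together with the CCAAT-binding factor NF-Y. Its letters, CCAAT and CCACG with 9 bases between them, were searched on both strands from 250 bases before to 50 bases after each start site in RefSeq (GRCm38.p6), where all 10 genes had an entry. Hspa5, Hsp90b1, Calr and Pdia6 held it, 4 of 10 genes, against 0.119% of 32851 promoter windows of the same length (39 windows). Herpud1 held the related ERSE-II, ATTGG and CCACG with 1 base between them, found in 0.0365% of windows (12). No window of the 10 held the XBP1-type core TGACGTGG, which 0.676% of all windows held. The 10 genes were listed as targets and components of this response, so finding its elements in them was not an independent test. The matched stretches are shown because the genes that carry them range from Herpud1, which lost label, to Hsp90b1, which did not. They read 5′ to 3′ on the strand of the gene, with the fixed letters of either element in capitals.
Hspa5 (chr2:34772020-34772048, plus strand): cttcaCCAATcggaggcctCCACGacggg
Pdia6 (chr12:17266486-17266514, plus strand): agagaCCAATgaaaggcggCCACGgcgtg
Calr (chr8:84847070-84847098, minus strand, element on the opposite strand): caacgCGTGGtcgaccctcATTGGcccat
Hsp90b1 (chr10:86705528-86705661, minus strand, an element at each end, the second on the opposite strand): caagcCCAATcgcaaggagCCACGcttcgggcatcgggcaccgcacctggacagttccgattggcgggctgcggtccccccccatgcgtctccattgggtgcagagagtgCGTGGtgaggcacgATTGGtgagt
Herpud1 (chr8:94386372-94386392, plus strand, ERSE-II): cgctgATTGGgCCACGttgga
Counted from the RefSeq start site, the element of Hspa5 began 65 bases before it, that of Pdia6 98 bases before and that of Herpud1 52 bases before. The gene coordinates given below, from GENCODE M21, begin at 34771970 for Hspa5, so its element lies inside that gene span. These are letter matches, and binding was not measured.

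Label loss ranged widely among the 10 genes, and their values fell into 3 patterns. Xbp1, Herpud1 and Dnajb9, a transcription factor, an ERAD component and a BiP cochaperone, lost label, with half-lives of 50.4, 58.9 and 52.7 min. A fit with posterior weights lengthened all 3 by over 1.5 times. A fit on labelled abundance (share times level) did so for Xbp1 only, as given for each gene. Hspa5 and Edem1 fell in T>C rate, while their labelled share did not pass the test. Hsp90b1, Calr, Pdia4, Pdia6 and Sdf2l1 began with less label, and none of them lost label by the test. They are called the folding genes below, a group set by these values. The name leaves out Hspa5 and Dnajb9, which encode a chaperone and a cochaperone of the ER. By limma on the natural log of the share, at a Benjamini-Hochberg adjusted p under 0.05 over all 11462 genes tested, 3 of the 10 fell and 1 rose. Over all genes tested 52.3% fell and 1.19% rose. By point estimate 5 of the 10 slopes were positive, against 18.1% over all genes tested. All 10 passed the read minimum, a mean of 100 reads per library. The median decay rate of the 10 was 0.078 per h, against 0.247 per h over all genes tested.

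**Figure D1:**
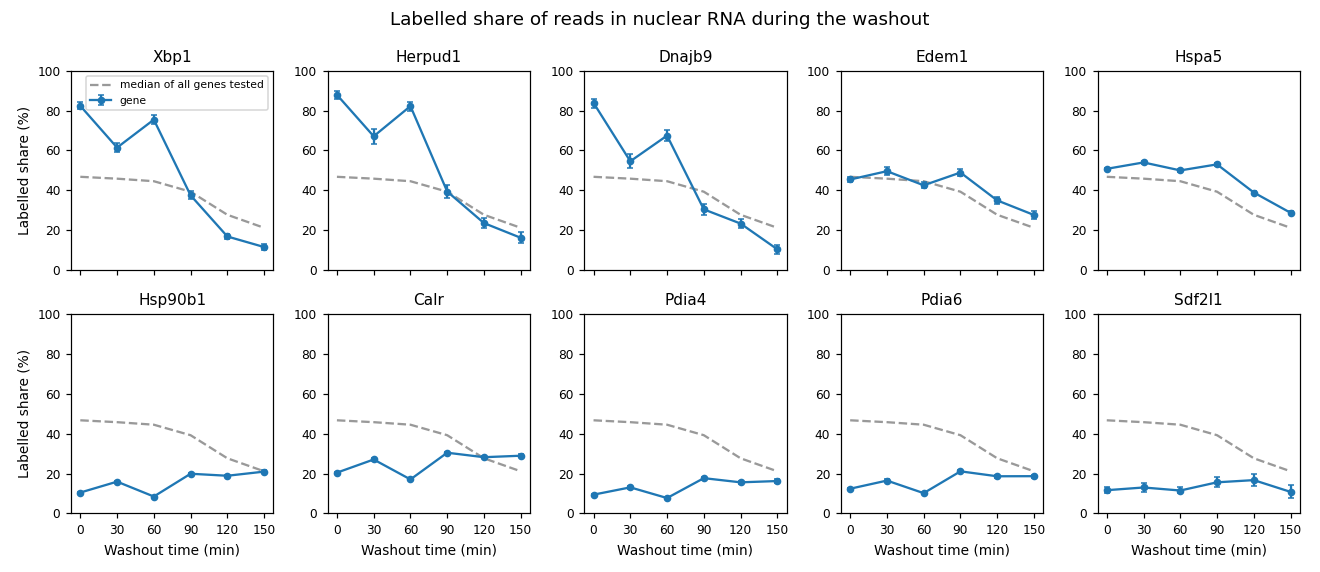
Labelled share of reads (%) of each gene against washout time (min), 1 library per point, with bars from the 5% to the 95% posterior quantile and the median of all genes tested as a dashed line. Xbp1, Herpud1 and Dnajb9 start at 82.4 to 87.9% and end at 10.3 to 16.1%, whereas Hsp90b1, Pdia4, Pdia6 and Sdf2l1 stay under 22%.

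Xbp1 (ENSMUSG00000020484; mm10 chromosome 11, 5520659 to 5525893, plus strand) encodes the transcription factor that IRE1 activates. Its labelled share was 82.4, 61.4, 75.5, 37.5, 16.8 and 11.5% in time order. The libraries at 0 and 60 min were the highest and those at 120 and 150 min the lowest, and the posterior range was 80.6 to 84.1% at 0 min against 10.2 to 12.9% at 150 min. The share decayed at 0.825 ± 0.116 per h (SE, 6 libraries; limma adjusted p = 5.99e-05), and 5.8% of genes tested had a faster rate. At 1 SE to either side the half-life was 44.2 to 58.6 min. That range does not cover the choice of scale. As labelled abundance, which does not assume a constant level, the slope of -0.825 per h became -0.532. With posterior weights it was -0.509, and both of these give half-lives over 1.5 times longer. Relative to the library median it was -0.505 per h, a difference from the typical gene that is not read as a half-life.

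Herpud1 (ENSMUSG00000031770; chromosome 8, 94386438 to 94395377, plus strand) encodes an ER membrane protein with a ubiquitin-like domain that helps assemble the ERAD machinery. Its share was 87.9, 67.1, 82.2, 39.4, 23.5 and 16.1% in time order, the highest value of the 10 genes at 0 min. This gave a rate of 0.706 ± 0.106 per h (SE, 6 libraries; limma adjusted p = 8.28e-05). With libraries weighted by the posterior width it did not pass (slope -0.34 ± 0.141 per h, limma adjusted p = 0.0633), and relative to the library median the slope was -0.386 per h. As labelled abundance the slope was -0.691 per h.

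Dnajb9 (ENSMUSG00000014905; chromosome 12, 44205559 to 44210326, minus strand) encodes ERdj4, a J-domain cochaperone of BiP. Its share was 83.9, 54.5, 67.4, 30.4, 23.3 and 10.3% in time order, the lowest of the 10 genes at 150 min. Its rate was 0.79 ± 0.11 per h (SE, 6 libraries; limma adjusted p = 5.82e-05). The slope of -0.79 became -0.518 with posterior weights and -0.469 relative to the library median, and was -0.711 as labelled abundance. All 3 of these genes had a higher share at 60 than at 30 min, as had 47.1% of genes tested, and the other 7 genes were lower at 60 min. The T>C rate of the whole library was also higher at 60 min.

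Hspa5 and Edem1 kept their label for longer. Hspa5 (ENSMUSG00000026864; chromosome 2, 34771970 to 34777547, plus strand) encodes BiP, the HSP70 chaperone of the ER lumen that also holds the sensors inactive. Its labelled share was 50.8, 54.0, 50.0, 53.0, 38.9 and 28.7% in time order. The first 4 libraries lay between 50.0 and 54.0%, and the last 2 were lower. The decay rate, 0.216 ± 0.094 per h (SE, 6 libraries), missed the threshold (limma adjusted p = 0.0639) and lay near the median of all genes. It passed without the library of 60 min (limma adjusted p = 0.0378) or of 90 min (0.0406), on the logit scale (0.0473) and with the 30 and 60 min times exchanged (0.044), 4 of 15 alternatives.

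Edem1 (ENSMUSG00000030104; chromosome 6, 108828641 to 108859356, plus strand) encodes an ERAD protein that handles misfolded glycoproteins. Its share followed that of Hspa5 closely, at 45.4, 49.6, 42.5, 48.9, 34.9 and 27.6%. The rate of 0.195 ± 0.093 per h (SE, 6 libraries) did not pass either (limma adjusted p = 0.0911). The difference between the slopes of Hspa5 and Edem1 was -0.022 ± 0.019 per h (SE, 6 libraries; two-sided exact permutation p = 0.311), the smallest of the 45 differences between pairs of these genes.

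Hsp90b1 (ENSMUSG00000020048; chromosome 10, 86690209 to 86705509, minus strand) encodes GRP94, the HSP90 chaperone of the ER. It was the only one of the 10 whose labelled share rose by the test, with values of 10.5, 15.9, 8.47, 19.9, 18.9 and 20.98% in time order. The 0 and 60 min libraries were the lowest. The slope was 0.277 ± 0.113 per h (SE, 6 libraries; limma adjusted p = 0.0495), just inside the threshold. It missed the threshold in 8 of 15 alternatives (limma adjusted p from 0.000537 to 0.3095 over the 15), among them leaving out any one library of 0, 90, 120 or 150 min (0.0755 to 0.159). Its T>C rate did not pass: it was 1.12, 1.26, 1.07, 1.61, 1.18 and 1.14% in time order, a slope of 0.014 ± 0.16 per h (SE, 6 libraries; limma adjusted p = 0.934).

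The other 4 folding genes had no slope that passed on the share itself. Relative to the library median, a scale that takes out the fall of the typical gene, all 5 folding genes rose. The slopes were 0.46 for Calr, 0.501 for Pdia6, 0.359 for Sdf2l1, 0.554 for Pdia4 and 0.597 per h for Hsp90b1 (limma adjusted p from 0.0084 to 0.0093). On that scale 4229 of 11462 genes tested rose. The folding genes were grouped for not losing label, so a rise against a falling median gives that group no support of its own. With the 30 and 60 min times exchanged Pdia4 (limma adjusted p = 0.0037) and Pdia6 (0.0213) passed besides Hsp90b1. Calr (ENSMUSG00000003814; chromosome 8, 84841850 to 84846934, minus strand) encodes calreticulin, the lectin chaperone that binds calcium and monoglucosylated glycoproteins. Its share was 20.5, 27.1, 17.1, 30.5, 28.2 and 29.0% in time order (slope 0.14 ± 0.1 per h, SE, 6 libraries; limma adjusted p = 0.259). Pdia4 (ENSMUSG00000025823; chromosome 6, 47796141 to 47813430, minus strand), a disulfide isomerase also known as ERp72, stood at 9.41, 13.1, 7.71, 17.7, 15.6 and 16.3% (limma adjusted p = 0.0831). Calr and Pdia4 thus were also lowest in the 0 and 60 min libraries.

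Pdia6 (ENSMUSG00000020571; chromosome 12, 17266545 to 17284770, plus strand), a disulfide isomerase that also acts on IRE1, had shares of 12.4, 16.5, 10.2, 21.1, 18.6 and 18.7% (limma adjusted p = 0.163). Sdf2l1 (ENSMUSG00000022769; chromosome 16, 17130138 to 17132383, minus strand), a lumenal protein that works with ER J-domain cochaperones, had 11.7, 13.01, 11.5, 15.6, 16.7 and 10.8% (limma adjusted p = 0.769). With 423 to 1091 reads, its posterior range at 150 min was wide, 7.8 to 14.2%. In 7 of the 10 genes, all but the fast 3, the share was lower at 0 than at 30 min, as in 44.7% of genes tested. In the same 7 the shares at 0 and 60 min were both below those at 30 and 90 min. That order was found in 31.6% of genes tested and in 2.18% of genes that fell. The 0 and 60 min libraries were also those with the highest T>C rate over all genes, and the part of that in the shares was not tested.

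The raw T>C rate does not pass through the authors' estimate of the labelled share, and it placed Hspa5 and Edem1 with the genes that fell. This rate also varies with the conversions per labelled read, so its half-lives need not be those of the labelled RNA. From 0 to 150 min the median share of genes tested went from 46.75 to 21.14%, and the T>C rate over all genes from 4.05 to 1.17%. The part of conversions per labelled read in the falls below was not tested. By limma on the natural log of conversions per covered T, 5 of 10 genes fell and 0 rose, where 66.9% of 11459 genes tested fell and 0 (0%) rose. Xbp1 had a rate of 8.3, 3.86, 8.57, 2.61, 0.887 and 0.606% in time order, higher than the whole library up to 90 min and lower at 120 and 150 min. Its rate fell by 1.07 ± 0.191 per h on the natural log scale (SE, 6 libraries; limma adjusted p = 0.000184), a half-life of 38.9 min. Herpud1 (43.0 min) and Dnajb9 (43.9 min) followed.

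The T>C rate of Hspa5 was 5.46, 4.03, 6.24, 4.12, 2.2 and 1.46% in time order, above that of the whole library at each of the 6 times. Its half-life by this measure was 82.5 min (limma adjusted p = 0.0132), and that of Edem1 was 83.2 min (limma adjusted p = 0.0128). By the share, whose slopes did not pass, the half-lives were 192.4 and 213.8 min. Leaving out either of the last libraries, 120 or 150 min, ended both calls (limma adjusted p up to 0.264). The rates of Calr (2.26% at 0 min and 1.55% at 150 min), Pdia4 (1.05 and 0.908%), Pdia6 (1.38 and 1.04%) and Sdf2l1 (1.29 and 0.698%) did not pass (limma adjusted p = 0.459, 0.91, 0.598 and 0.3). The T>C slope of Sdf2l1 was -0.185 per h. It passed with the 30 and 60 min times exchanged (-0.241 per h, limma adjusted p = 0.0324), and was -0.387 per h (0.0773) where both mates covered the base.

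**Figure D2:**
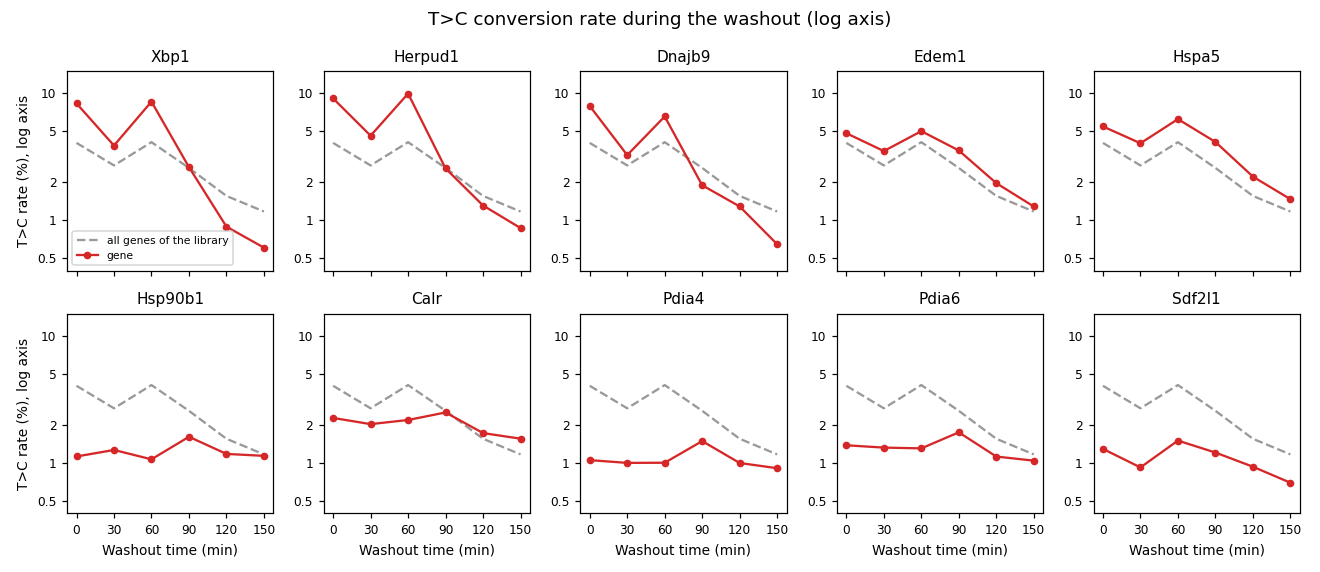
T>C conversion rate (%, log axis) of each gene against washout time (min), 1 library per point, with the rate over all genes of the same library as a dashed line. Xbp1 goes from 8.3% to 0.606%, crossing the library's rate between 90 and 120 min, while Hsp90b1 stays between 1.07 and 1.61%.

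**Figure D3:**
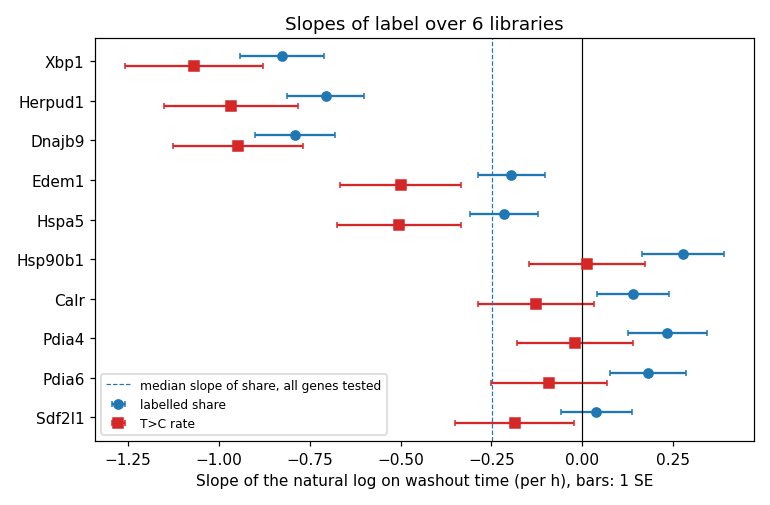
Slopes on washout time, per h, of the log-transformed (natural log) labelled share (circles) and T>C rate (squares), with 1 SE to either side, over 6 libraries. The dashed line is the median slope of the share over all genes tested, -0.247 per h. The share slopes of Xbp1, Herpud1 and Dnajb9 lie below it, and the T>C slopes of those 3 genes, Hspa5 and Edem1 are those that passed.

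Differences between the genes were tested pair by pair, because a deviation that a library gives equally to both genes cancels. An unequal deviation does not cancel. From 30 to 60 min the share of Xbp1 went from 61.4 to 75.5%, and that of Hsp90b1 from 15.9 to 8.47%. The part of the libraries in the pair differences was not tested. Of 45 pairs, 33 had a slope difference with an unadjusted two-sided exact permutation p under 0.05, and 0 passed after Benjamini-Hochberg adjustment over the pairs (smallest adjusted p = 0.0517, all orderings of the times enumerated). The slope of Xbp1 minus that of Hspa5 was -0.609 ± 0.123 per h (SE, 6 libraries; exact permutation p = 0.0139, adjusted p = 0.0517). Against Hsp90b1 the difference for Xbp1 was -1.10 ± 0.269 per h (SE, 6 libraries; exact permutation p = 0.0278, adjusted p = 0.0517).

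The 12 pairs without an unadjusted p under 0.05 were the 3 pairs among Xbp1, Herpud1 and Dnajb9, the pair of Hspa5 and Edem1, and 8 of the 10 pairs among the folding genes. These are the genes set side by side above for their like slopes, so the pairs give that grouping no support of their own. Xbp1 and Dnajb9 differed by -0.036 ± 0.1 per h (SE, 6 libraries; exact permutation p = 0.775). Without the 60 min library 31 pairs passed after adjustment, and with the 30 and 60 min times exchanged 33 did.

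Total RNA was compared because a half-life read from a share assumes a constant level. By edgeR's quasi-likelihood test 0 of the 10 genes, and 0 of 15743 genes tested (0%), passed at an adjusted p under 0.05. At an unadjusted p under 0.05 there were 4 of 10 genes, against 21.7% of all genes tested. By point estimate 5 of the 10 slopes were positive and 5 negative, against 48.9 and 51.1% over all genes tested. DESeq2 called 2 of the 10, Xbp1 rising and Sdf2l1 falling, where 2.27% of its 13606 genes rose and 2.51% fell.

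Xbp1 had 58.0, 77.4, 43.1, 79.6, 102.9 and 121.0 CPM (TMM-scaled) in time order, lowest at 60 min and highest at the 2 last times. Its slope was 0.41 ± 0.12 log2 per h (SE, 6 libraries; edgeR adjusted p = 0.11, DESeq2 adjusted p = 0.0203). The level at 150 min was 2.08 times that at 0 min. Split by the share, unlabelled Xbp1 RNA went from 10.2 to 107.1 CPM, and labelled Xbp1 RNA from 47.8 to 13.9 CPM. The edgeR test called Xbp1 without the 60 min library (adjusted p = 0.0092).

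Sdf2l1 had 38.3, 30.5, 38.1, 26.1, 25.7 and 23.0 CPM in time order, with the 0 and 60 min libraries above the others (slope -0.29 ± 0.078 log2 per h, SE, 6 libraries; edgeR adjusted p = 0.104, DESeq2 adjusted p = 0.0349). Without the 60 min library edgeR called it (adjusted p = 0.0169). Hsp90b1 ranged from 1048 CPM at 150 min to 1640 CPM at 0 min (slope -0.20 ± 0.071 log2 per h, SE, 6 libraries; edgeR adjusted p = 0.148). Hspa5 was between 678 and 818 CPM with no slope that passed (edgeR adjusted p = 0.904).

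In 6 of the 10 genes, the 5 folding genes and Herpud1, the level was higher at both 0 and 60 min than at both 30 and 90 min, an order seen in 24.9% of genes tested. The opposite order was seen in Xbp1, Edem1 and Dnajb9, and in 24.3% of genes tested. These are the same library pairs that stood apart in T>C rate, and the part of the library in the levels was not tested.

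**Figure D4:**
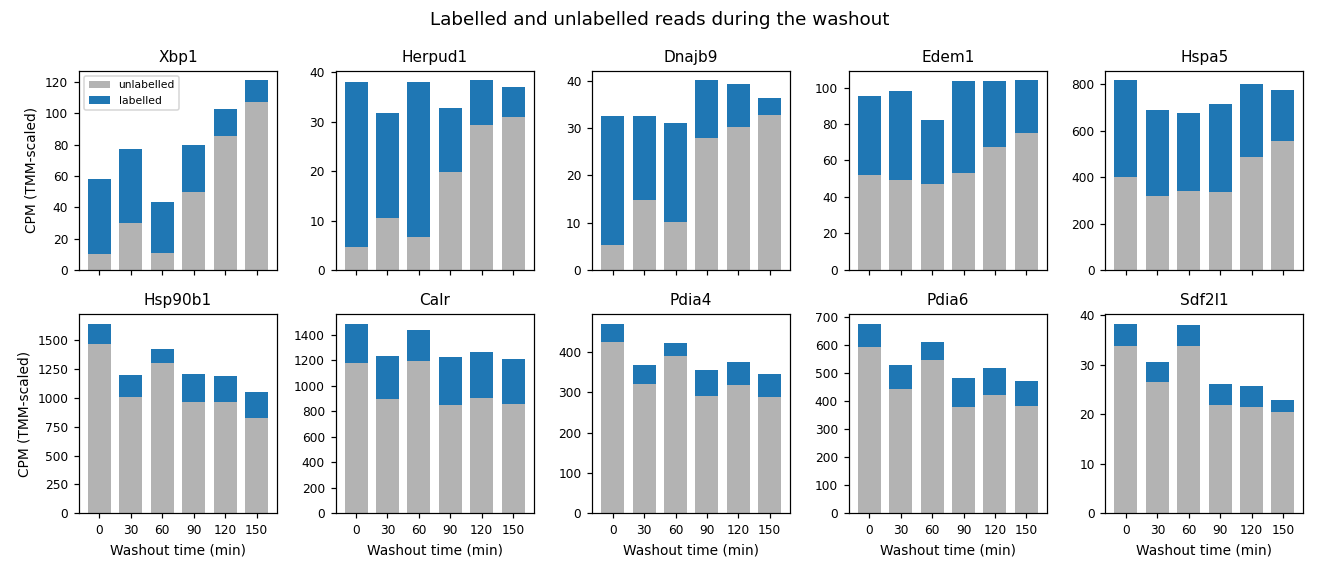
TMM-scaled CPM of each gene by washout time (min), 1 library per bar, split into labelled (blue, on top) and unlabelled (grey) reads by the labelled share, with a separate axis from 0 for each gene. Grey grows in Xbp1 from 10.2 to 107.1 CPM, while in Hsp90b1 the whole bar is highest at 0 min (1640 CPM) and lowest at 150 min (1048 CPM).

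Hspa5 and 4 of the folding genes had the highest levels. Per kilobase of the deposited gene length, Calr had the highest mean level over the 6 libraries, 599.9 CPM per kb (range 553.0 to 681.2), above 99.4% of genes that passed the read minimum. Next came Hsp90b1 (398.4; 325.4 to 509.0), Pdia6 (252.0; 216.7 to 310.8), Hspa5 (203.4; 184.6 to 222.8) and Pdia4 (162.2; 143.9 to 195.8). The ranges of Pdia6 and Hspa5, and of Hspa5 and Pdia4, overlapped, and those of Calr and Hsp90b1, and of Hsp90b1 and Pdia6, did not. Xbp1 (37.7), Sdf2l1 (27.3), Herpud1 (18.5), Edem1 (16.1) and Dnajb9 (14.4 CPM per kb) followed, none of them reaching the range of Pdia4. Among these 5, neighbours in order overlapped except Sdf2l1 and Herpud1.

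Label taken up during the 4 h pulse was also read as a half-life, from the 0 min library alone. At steady state, 87.9% labelled corresponds to a half-life of 78.7 min for Herpud1 (72.2 to 85.6 over the posterior range). Dnajb9 had 91.2 min and Xbp1 95.9 min, longer than from the washout. Hspa5 (234.8 min) and Edem1 (274.9 min) stood next. From the washout share, with slopes that did not pass, they had 192.4 min (134.2 to 340.0 at 1 SE) and 213.8 min (144.6 to 409.8). For the folding genes the uptake values were 726.7 min for Calr, 1258 min for Pdia6, 1343 min for Sdf2l1, 1504 min for Hsp90b1 and 1683 min for Pdia4. In each of them the share at 0 min lay below those at 30 and 90 min (10.5, 15.9 and 19.9% for Hsp90b1). A higher share gives a shorter half-life, and the part of the 0 min library in these values was not tested. The order of the 3 patterns was the same in uptake, which was not tested. Uptake is computed from the share at 0 min, which also enters the washout slopes and was used to describe the patterns. The order therefore gives the patterns no support of its own. No level was measured during the pulse, so the assumption of a constant level was not tested there. Over the washout Xbp1 ranged from 43.1 CPM at 60 min to 121.0 CPM at 150 min. Its slope did not pass by edgeR (adjusted p = 0.11) and passed by DESeq2 (adjusted p = 0.0203).

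Gene structure and AU-rich elements were listed as features that the choice of genes had not used. In GENCODE M21 (same build) the gene spans ran from 2246 bases for Sdf2l1 to 30716 bases for Edem1, with 2 introns in Sdf2l1 and Dnajb9 and 17 in Hsp90b1. The pentamer ATTTA, the core of AU-rich elements that mark many short-lived mRNAs, was counted in the 3′ UTR of the transcript with the longest coding sequence. At least 1 was found in 7 of the 10 genes and in 61.9% of protein-coding genes. Among the genes that lost label, Xbp1 had 3 (3.03 per kb), Dnajb9 had 4 (2.87 per kb) and Herpud1 had 0. Among the folding genes, Pdia4 had 5.76 per kb, Hsp90b1 3.82, Calr 2.51, and Pdia6 and Sdf2l1 had 0. Hspa5 had the most of the 10 genes, 10 in 1434 bases (6.97 per kb), against a median of 1.14 per kb over 20948 protein-coding genes. The longer form TATTTAT was found in Edem1 only (2 copies) among the 10 genes, and in 25.6% of protein-coding genes. Genes annotated on the other strand overlap Dnajb9, Herpud1, Hsp90b1 and Pdia6, and the sources used here do not say whether the counting used strand. On the same strand Gm15344 and Gm25745 overlap Hsp90b1, and Mir704 overlaps Pdia4.

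Other genes of the pathway were grouped by role, and these groups were described by counts and medians only. Of 65 measured, 24 lost label and 0 gained it by limma, where 52.3% and 1.19% of all genes tested did. Of 8 sensors and their processing enzymes 4 fell, from Eif2ak3, which encodes PERK (56.3 min; 86.3% at 0 min and 13.7% at 150 min), to Mbtps2, the site-2 protease that cleaves ATF6 (170.8 min). The median decay rate of the 8 was 0.217 per h. Of 8 PERK arm factors 7 fell, from Atf4, its translationally controlled transcription factor (42.8 min), to Atf3 (97.0 min), with a median of 0.541 per h. Eif2s1, the subunit of eIF2 that PERK phosphorylates, did not pass (27.4% at 0 min and 26.2% at 150 min) and was chosen for naming after its values were seen.

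Of 16 chaperones and folding enzymes 0 fell and 0 rose, and their median decay rate was -0.074 per h. The median of their shares went from 21.8% at 0 min to 24.1% at 150 min. Of 17 ERAD genes 10 fell, from the ubiquitin ligase gene Syvn1, which encodes HRD1 (57.1 min), to the conjugating enzyme gene Ube2j1 (153.4 min), with a median of 0.303 per h. Of 16 translocon and secretory transport genes 3 fell, from Srprb, a subunit of the receptor for the signal recognition particle (99.95 min), to Ssr1 (137.7 min), with a median of -0.005 per h. On the T>C rate 7 of 8 sensors, 7 of 8 PERK arm factors, 2 of 16 chaperones and folding enzymes, 12 of 17 ERAD genes and 4 of 16 translocon genes fell, where 66.9% of all genes tested did. Differences between the roles were not tested, and the role lists were drawn up with earlier results of these data known.

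**Figure D5:**
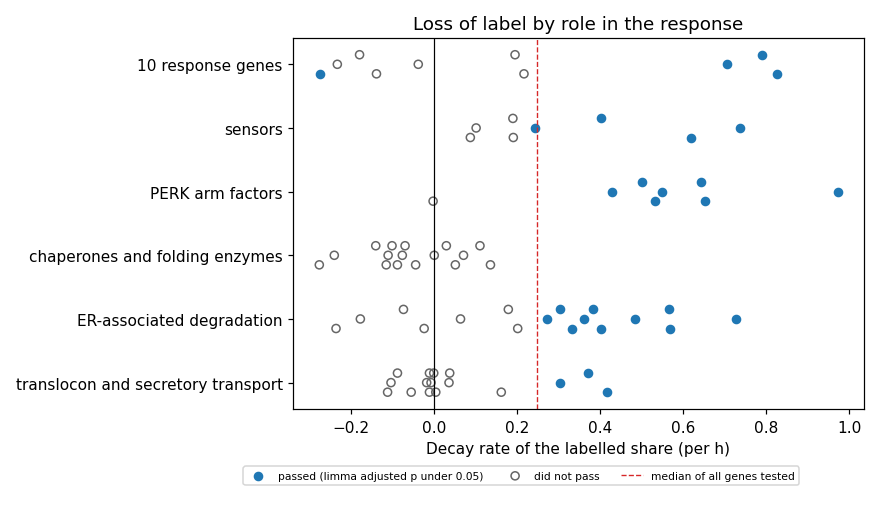
Decay rate of the labelled share (per h) of the 10 genes and of 65 other pathway genes by role, 1 point per gene, filled where limma's adjusted p was under 0.05, with the median of all genes tested (0.247 per h) as a dashed line. Filled at a positive rate are 4 of 8 sensors, 7 of 8 PERK arm factors, 0 of 16 chaperones and folding enzymes, 10 of 17 ERAD genes and 3 of 16 translocon genes, where 52.3% of all genes tested fell.

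The genes closest to Xbp1 and to Calr, the member with the most reads, were found by the root mean square difference of the natural log of the share over the 6 libraries, among 7539 other genes averaging 500 reads or more. Xbp1 was closest to Zfp51 (0.043), Lysmd3 (0.043) and Zfp281 (0.044), with half-lives of 50.4, 50.3 and 48.7 min. These half-lives are fitted on the same shares that the search used, so their likeness to that of Xbp1 follows from the search. Calr was closest to Rpa1 (0.035), Spg21 (0.04) and Sae1 (0.043), whose shares at 0 and 150 min were 20.2 and 30.2%, 19.9 and 29.7%, and 22.3 and 28.3%.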

How the data were processed

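Nuclear RNA of 6 samples, 1 per washout time, was read as stranded total RNA libraries with paired ends of 81 nt, per the labels' protocols. Reads were aligned with STAR 2.5.2b to mm10, per the submitters' processing notes. The sources used here do not name the program behind the table. By its headers, the deposited table held read counts per gene, not normalized, and the labelled fraction as the authors' posterior mean, mode and quantiles. It also held T>C conversions and the coverage of T positions, deposited with 4 significant digits. Column names carry a number without a unit, or none. Each was read as the time in a sample title without the ending shared by all titles, and every slope rests on that reading.

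limma 3.58.1 tested slopes of ln share and ln T>C rate on time for genes averaging 100 reads or more with values above 0 in all libraries (4 residual degrees of freedom). edgeR 4.0.16 (quasi-likelihood, TMM, filterByExpr) tested counts, and DESeq2 1.42.0 was an alternative. P-values were adjusted by Benjamini-Hochberg over all genes tested. Pairs of genes were compared by exact permutation of the 720 orderings of the times. The scripts were tested on simulated data. Of the table's IDs, 23223 (99.75%) matched GENCODE M21. The 10 genes, the role lists and the tests were chosen with earlier results of these data known. Named genes were all 10, the shortest and longest half-life among the falling genes of each role list, and 3 nearest genes for Xbp1 and for the member with the most reads. The labels do not say how far the 6 samples were independent cultures.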

Additional observations from a re-analysis of the deposited data

How the results depend on the processing

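No paired analysis was possible because each washout time had 1 library. With 1 library left out, 3 to 4 of the 10 genes lost label share, 0 to 2 gained it, and 3 to 5 lost T>C rate. Over all genes 3582 to 6335 lost label share and 56 to 230 gained it (5996 and 136 with all libraries), and the low count of losses came from leaving out 150 min. Genes with rising total reads numbered 0 to 1 of the 10, those with falling total reads 0 to 1, and pairs that differed 0 to 31.

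The single gain, Hsp90b1, was lost on the logit scale, with the posterior mode, as labelled abundance and with no read minimum (0 of the 10 gaining each time). With the 30 and 60 min times exchanged 3 of the 10 gained (523 of all genes). Relative to the library median, which removes the slope of the libraries' median ln share (-0.32 per h), 5 gained, the folding genes. Over all genes 2886 then lost and 4229 gained. On that scale Hspa5 and Edem1 turned positive (0.104 and 0.126 per h). Sdf2l1 turned negative as labelled abundance (-0.159 per h) and ranged from -0.015 (no 120 min library) to 0.181 per h with 1 library left out. With posterior weights 2949 of all genes lost label. Over all genes gains numbered 56 on the logit scale and 35 as labelled abundance.

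For total reads, DESeq2 called 1 of the 10 rising and 1 falling (650 of all genes), edgeR without a filter 1 rising (399 of all genes), and exchanged times gave 1 rising and 3 falling (2884 of all genes); edgeR called 0 to 1413 of all genes with 1 library left out. The total read slope of Hspa5 ran from -0.0033 to 0.11625 log2 per h with 1 library left out, negative without 120 or 150 min. That of Herpud1 ran from -0.0041 (no 30 min library) to 0.0876, and was -0.0074 with exchanged times. The T>C slope of Hsp90b1 ran from -0.023 to 0.067 per h with 1 library left out, negative without 0 or 90 min (-0.005), and was -0.052 per h where both mates covered the base, an alternative added after seeing the data. That of Pdia4 ran from -0.044 to 0.058 per h, positive without 150 min. On the logit scale and with exchanged times 33 pairs differed, and 0 did on the T>C rate (also added). The cause of these changes was not tested. Xbp1 and Dnajb9 lost label in all 15 alternatives run on the share, and Herpud1 in 14, missing with posterior weights. Posterior ranges cover counting error within a library only.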
